A study of Mus musculus with 7 samples.

Results

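The genes that carry calcium across the distal nephron or belong to the vitamin D system were followed in mouse kidney: Trpv5, Trpv6, Calb1, S100g, Slc8a1, Atp2b4, Vdr, Cyp24a1, Cyp27b1 and Casr. They were chosen by name for their place in this pathway, with earlier results of these data known. All 10 were found among the 45706 genes of the deposited tables. The kidneys came from 4 male Slc7a9-/- mice given L-ergothioneine, a dietary thiol antioxidant, in the drinking water at 16 mg/kg/day, and from 3 untreated male Slc7a9-/- mice. All 7 mice were 6 months old. Slc7a9 encodes a subunit of the renal cystine carrier, so both groups are models of cystinuria and no wild-type kidney was measured. The length of treatment and the hour of collection are not stated in the labels.

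Most filtered calcium is taken back in the proximal tubule and the thick ascending limb, and the hormone-controlled remainder in the distal convoluted and connecting tubules. There, calcium enters the cell through the apical channel TRPV5, is carried across the cytosol by calbindins, and leaves through the sodium-calcium exchanger NCX1 and plasma membrane calcium pumps. Calcitriol, the active form of vitamin D, is made by CYP27B1, acts through the receptor VDR and is broken down by CYP24A1. VDR activation is known to raise the genes for TRPV5, the calbindins and CYP24A1 and to lower Cyp27b1, while the calcium-sensing receptor CASR reads extracellular calcium, in kidney mainly in the thick ascending limb.

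All 10 genes had a higher fitted level in ergothioneine-treated kidneys than in untreated ones, and 4 of the 10 passed the test: S100g (2.01-fold), Trpv5 (1.34-fold), Atp2b4 (1.28-fold) and Vdr (1.19-fold). Calb1 (1.82-fold) and Slc8a1 (1.41-fold) missed the threshold by edgeR and passed by DESeq2. Among all 15399 genes tested, 3.58% were called higher and 3.57% lower, and the median log2 fold change was 0, against a median of 0.4 over the 10 genes. In 5 of the 10, every treated library lay above every untreated library (Trpv5, Calb1, S100g, Atp2b4 and Vdr), as did 9.46% of all genes tested. The 10 genes were chosen with earlier results of these data known, so these shares describe them and give no independent test. Because whole kidneys were sampled, more cells of a type and more RNA per cell cannot be told apart. The p-values set the groups against the spread between these 7 animals.

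The libraries held 14843899 to 19791575 counts. Slc7a9 itself had 95 to 166 counts in every library. The labels name no exon as deleted, so these counts do not check the genotype. Short non-coding RNA made up 1.83% to 2.79% of the counts in the treated libraries and untreated library 3, against 0.428% in untreated library 1 and 0.571% in untreated library 2. On TPM, which divides by transcript length and so weights short RNA more, it made up 37.5% to 48.7% of those 5 libraries, against 12.2% and 16.2%. The median gene stood at -0.31 on log2(TPM + 1) between the groups, and TPM levels below were rescaled without these short genes. The adipocyte list fell, with all 5 tested genes of 6 lower and a summed level of 0.681 to 4.62 CPM in treated against 29.6 to 44 CPM in untreated libraries. Of 16 circadian clock genes, 3 were higher and 11 lower, and 1 of 5 tested leukocyte markers was lower. Podocyte and smooth muscle markers each had 1 of 5 higher, beside 3.58% of all genes called higher and 3.57% lower. No endothelial marker of 5 and no erythroid marker of 2 tested was called by edgeR or DESeq2, and 0 had an unadjusted p under 0.05. The parathyroid markers were at 0 counts in all libraries. The part of these differences in the results below was not tested.

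Promoter sequence is shown for S100g and Trpv5, the called genes of calcium binding and apical entry. RefSeq windows of 300 bases (GRCm38.p6), 250 before the annotated start and 50 from it, were at hand for 8 of the 10 genes and not for Calb1 and Cyp24a1. Capitals mark matches on either strand to the hexamer AGGTCA or its variants AGTTCA and GGTTCA, the units of vitamin D response elements, and to the TATA box TATAAA.
S100g (chrX:162964550-162964849, minus strand): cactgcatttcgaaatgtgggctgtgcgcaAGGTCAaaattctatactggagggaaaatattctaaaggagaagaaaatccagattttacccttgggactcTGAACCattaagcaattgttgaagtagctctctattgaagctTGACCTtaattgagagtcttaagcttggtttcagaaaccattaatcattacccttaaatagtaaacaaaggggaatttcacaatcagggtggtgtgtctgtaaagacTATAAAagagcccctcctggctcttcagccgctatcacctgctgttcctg
Trpv5 (chr6:41680674-41680973, minus strand): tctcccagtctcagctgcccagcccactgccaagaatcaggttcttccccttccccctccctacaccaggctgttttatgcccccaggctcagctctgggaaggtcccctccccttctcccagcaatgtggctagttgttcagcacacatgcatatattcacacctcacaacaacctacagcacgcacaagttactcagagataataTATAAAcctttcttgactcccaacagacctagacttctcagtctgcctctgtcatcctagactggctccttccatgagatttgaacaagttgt
The S100g window held AGGTCA at bases 31 to 36 and, on the other strand, at bases 144 to 149, and GGTTCA on the other strand at bases 102 to 107. Its TATA box lay at bases 251 to 256, at the annotated start, and that of Trpv5 at bases 208 to 213. Of all 32851 promoter windows, 16.3% held AGGTCA, 14% held AGTTCA, 10.4% held GGTTCA and 13.6% held TATAAA. The Trpv6 window also held AGGTCA, at 2 places, and that of Vdr held AGTTCA. A response element joins 2 such units with 3 bases between them. Direct repeats of that form of AGGTCA, of GGTTCA or of AGTTCA, exact in every letter, occurred in none of the 8 windows and in 0.00609%, 0.00609% and 0% of all windows. Exact repeats are so rare that finding none in 8 windows carries no information. Repeats of mixed or inexact units were not searched, so whether these windows hold a response element was not tested. The E-box CACGTG, a site of the circadian clock, was in none of the 8 and in 7.15% of all windows.

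Trpv5 encodes the apical channel through which calcium enters distal tubule cells (chromosome 6, 41652173 to 41680769, GRCm38). It was at 23.6, 21.8, 21.6 and 20.3 CPM (counts scaled to a common library size) in treated libraries 1 to 4, against 15, 16.3 and 17.6 CPM in untreated libraries 1 to 3. Every treated kidney lay above every untreated one. The means were 21.8 ± 1.33 CPM in treated and 16.3 ± 1.28 CPM in untreated kidneys (SD, n = 4 and 3), a log2 fold change of 0.42 ± 0.09 (SE; edgeR adjusted p = 0.00824). Without untreated library 1 it missed the threshold at adjusted p = 0.0508. Trpv6, a close relative best known for calcium uptake in intestine, whose gene lies next to Trpv5 (chromosome 6, 41620624 to 41636405), was near the limit of detection at 20, 25, 26 and 21 counts in treated and 21, 14 and 20 counts in untreated libraries. The groups overlapped, and the difference of 0.15 had a 95% interval of -0.46 to 0.76 on the log2 scale (adjusted p = 0.836). All 70 counts of the 10 genes were whole numbers.

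The calbindins had the largest log2 fold changes of the transport genes. S100g encodes the small calbindin of the connecting tubule and intestine, a cytosolic carrier of calcium (chromosome X, 162961992 to 162964599). It stood at 151, 147, 148 and 107 CPM in treated libraries, against 54.4, 80.3 and 72.2 CPM in untreated ones. The groups did not overlap, though treated library 4 lay well below the other 3 treated kidneys. With 138 ± 21.1 CPM in treated and 69.0 ± 13.2 CPM in untreated kidneys, the log2 fold change was 1.00 ± 0.19 (adjusted p = 0.0341), and 0.857% of all tested genes had a larger positive one. The call depended on the libraries and settings used: the adjusted p was 0.0823, 0.0916 and 0.0746 without treated library 1, 2 or 3, and 0.0548 and 0.106 without untreated library 2 or 3. It was 0.0901 with the library index as a block (high against low indices) and 0.0503 with no filter on low counts. S100g lies inside Ctps2 on the opposite strand, and the strand setting of the counting is not given in the sources used here. Ctps2, a CTP synthase gene, averaged 30.0 ± 1.51 CPM in treated and 28.3 ± 2.11 CPM in untreated kidneys (log2 fold change 0.08, adjusted p = 0.616).

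Calb1 encodes the larger calbindin of the distal convoluted and connecting tubules (chromosome 4, 15881264 to 15908064). It was at 557, 556, 465 and 453 CPM in treated libraries and at 242, 363 and 234 CPM in untreated ones. No treated kidney was as low as untreated library 2, the highest of its group. The means were 508 ± 56.3 CPM in treated and 280 ± 72.3 CPM in untreated kidneys, and the log2 fold change of 0.86 ± 0.19 (95% interval 0.40 to 1.33, not adjusted for the number of genes) did not pass by edgeR (adjusted p = 0.0552). It passed by DESeq2 (adjusted p = 0.000832), by limma-voom (0.0499) and, at 1.09, without untreated library 2 (edgeR adjusted p = 1.78e-05). Without any other single library it did not pass (adjusted p = 0.0911 to 0.141), and the log2 fold change was lowest, at 0.75, without untreated library 3.

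Calcium leaves across the basolateral membrane through an exchanger and through pumps. Slc8a1, for the sodium-calcium exchanger NCX1 (chromosome 17, 81373105 to 81738377), was at 321, 294, 290 and 247 CPM in treated libraries, against 200, 248 and 164 CPM in untreated ones. Only untreated library 2 reached into the treated range, just above treated library 4. The log2 fold change was 0.50 ± 0.16 (95% interval 0.12 to 0.88; edgeR adjusted p = 0.133). It passed by DESeq2 (adjusted p = 0.0466) and without untreated library 2 (0.66, edgeR adjusted p = 0.0128). Without any other single library it did not pass (adjusted p = 0.109 to 0.292), and it was at 0.36 without untreated library 3. Atp2b4, for the plasma membrane calcium pump PMCA4 (chromosome 1, 133699457 to 133801041), was at 63.3, 64.5, 52.8 and 57.7 CPM in treated and at 46.6, 45.4 and 47.4 CPM in untreated libraries. The untreated kidneys were nearly alike, and all 4 treated ones were higher. Its log2 fold change of 0.36 ± 0.07 (adjusted p = 0.00569) passed without any single library (adjusted p up to 0.0272). Atp2b1, for the related pump PMCA1, is not one of the 10 and was added after its values were seen. It was more abundant, at 94.2 ± 4.15 CPM in treated and 92.7 ± 3.3 CPM in untreated kidneys, with overlapping groups and a log2 fold change of 0.02 (95% interval -0.10 to 0.15, adjusted p = 0.874). Slc8a1 and Atp2b4 are also active in muscle and vessels. The smooth muscle list had 1 of 5 genes higher, with a sum of 60.1 to 68.8 CPM in treated and 43.8 to 61.2 CPM in untreated libraries, and the endothelial list summed to 277 to 300 CPM and 276 to 293 CPM.

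**Figure D1:**
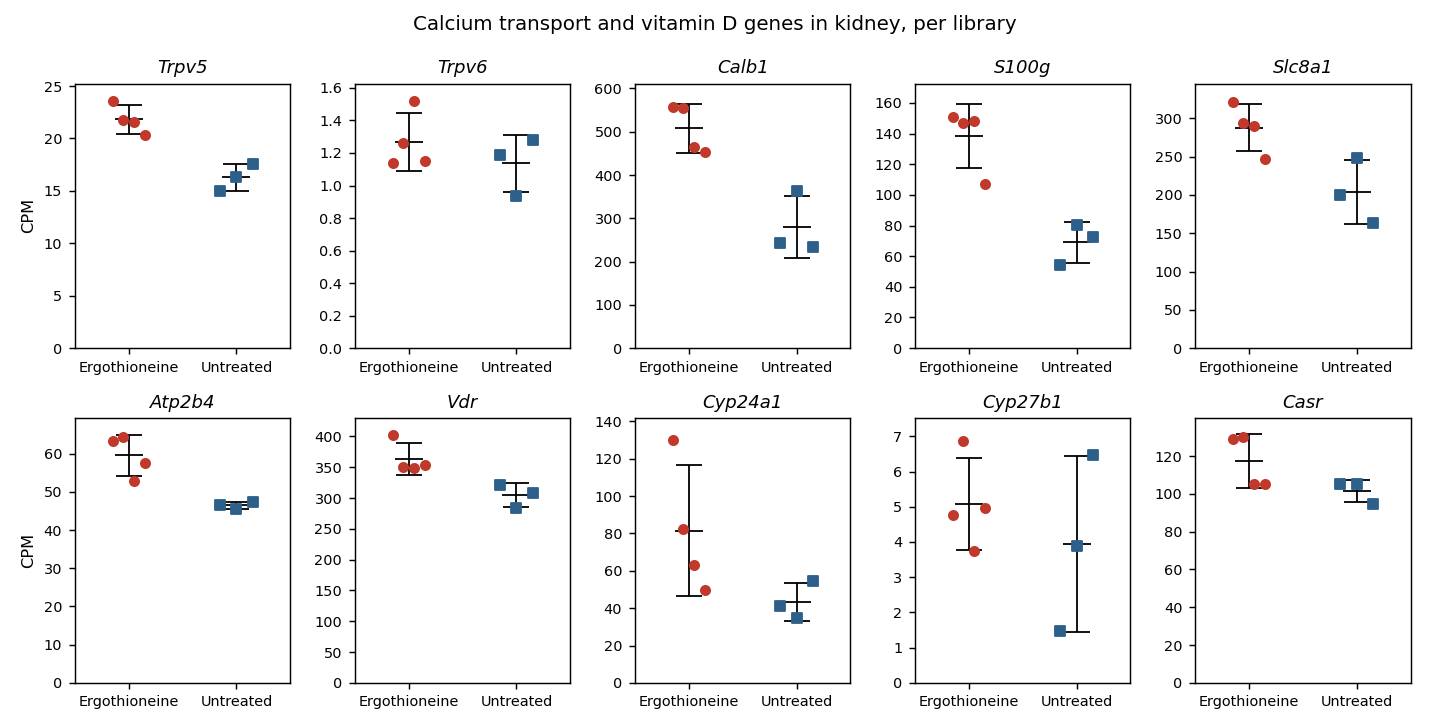
CPM of the 10 genes in each kidney library, with ergothioneine-treated (red circles, n = 4) left of untreated (blue squares, n = 3) and bars for mean ± SD. Treated kidneys lie above all untreated ones for Trpv5, Calb1, S100g, Atp2b4 and Vdr, and Cyp24a1 spreads from 49.8 to 130 CPM among treated kidneys.

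Of the vitamin D genes, only the receptor passed by edgeR. Vdr (chromosome 15, 97854425 to 97910630) was at 403, 351, 349 and 353 CPM in treated libraries, against 322, 284 and 309 CPM in untreated ones. Treated library 1 was the highest, and the other 3 treated kidneys lay close together, still above the untreated group. The log2 fold change was 0.26 ± 0.07 (adjusted p = 0.025), but -0.11 on unscaled log2(TPM + 1), where the median gene stood at -0.31, and 0.27 on rescaled TPM. It missed the threshold without treated library 1 (adjusted p = 0.105) or untreated library 2 or 3 (0.0951 and 0.0556).

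Cyp24a1, for the enzyme that breaks down calcitriol (chromosome 2, 170482708 to 170497145), was the most variable of the abundant genes, with 130, 82.6, 63.3 and 49.8 CPM in treated libraries and 40.9, 34.5 and 54.6 CPM in untreated ones. Treated library 4 fell below untreated library 3, so the groups overlapped. The means of 81.5 ± 35.2 CPM in treated and 43.3 ± 10.3 CPM in untreated kidneys gave a log2 fold change of 0.91 ± 0.40 with a 95% interval of -0.10 to 1.93 (adjusted p = 0.289). It passed under none of the 19 other settings. Without treated library 1 the log2 fold change was 0.59. Cyp27b1, for the enzyme that makes calcitriol (chromosome 10, 127048250 to 127053006), had 84, 136, 64 and 91 counts in treated and 26, 58 and 101 counts in untreated libraries. That is 5.09 ± 1.31 CPM and 3.95 ± 2.50 CPM, and the untreated libraries alone ran over 1.47 to 6.48 CPM. Its 95% interval of -0.75 to 1.53 on the log2 scale covers changes in either direction (log2 fold change 0.39, adjusted p = 0.726, and -0.02 without untreated library 1).

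Casr, for the calcium-sensing receptor (chromosome 16, 36493696 to 36562141), was at 129, 130, 105 and 105 CPM in treated libraries and at 105, 105 and 94.6 CPM in untreated ones. Treated libraries 1 and 2 were high and the other 2 matched the untreated level. The log2 fold change of 0.21 ± 0.08 did not pass (95% interval 0.03 to 0.39, adjusted p = 0.162).

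Per transcript length, S100g was by far the most abundant of the 10, at 1090 ± 143 rescaled TPM in treated and 561 ± 108 rescaled TPM in untreated kidneys (SD, n = 4 and 3). Calb1 followed with 230 ± 20.1 and 126 ± 20.7 rescaled TPM, then Slc8a1 with 173 ± 15 and 121 ± 16.9, and Vdr with 154 ± 5.83 and 129 ± 17.4. In untreated kidneys the levels of Calb1, Slc8a1 and Vdr lay within their spread of each other, while in treated kidneys every Calb1 value lay above every Slc8a1 value. Casr (44.9 ± 5.70 and 39.6 ± 1.55) and Cyp24a1 (38.5 ± 15.4 and 20.8 ± 6.60) formed the middle of the order, and their treated levels overlapped. Trpv5, at 11.5 ± 0.474 and 8.58 ± 1.25 rescaled TPM, was level with Atp2b4 at 10.9 ± 1.3 and 8.08 ± 0.751. Cyp27b1 (3.77 ± 1.07 and 3.12 ± 2.07) and Trpv6 (0.760 ± 0.115 and 0.672 ± 0.153) were lowest. Of the 6 transport genes among the 10, the calbindins were the most abundant, and Trpv5 and Atp2b4 the scarcest apart from Trpv6. Atp2b1, outside the 10, was at 21.5 ± 0.491 rescaled TPM in treated and 20.9 ± 1 rescaled TPM in untreated kidneys.

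**Figure D2:**
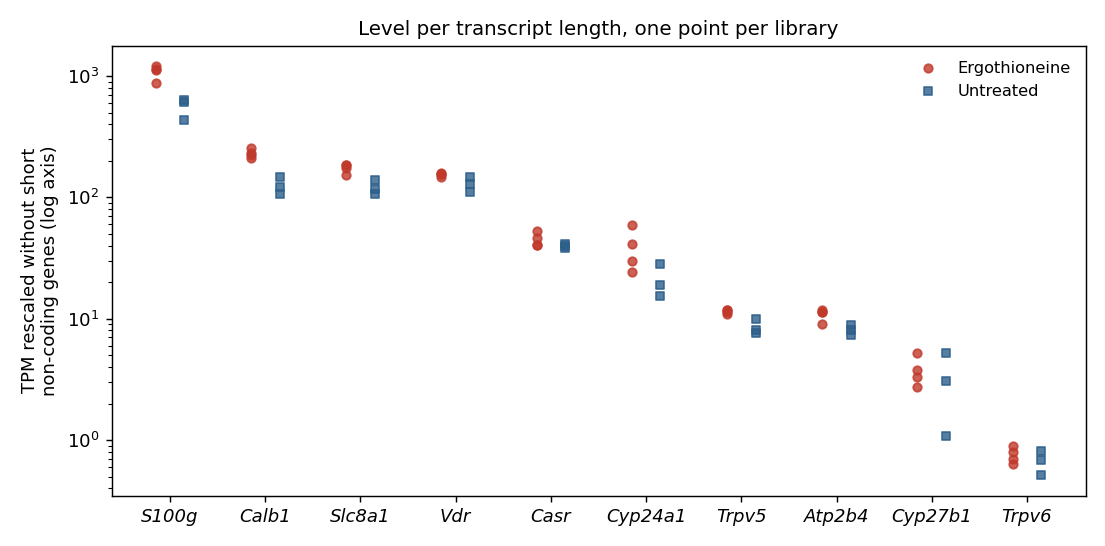
TPM rescaled without short non-coding genes, on a log axis, for each library of treated (red circles, n = 4) and untreated kidneys (blue squares, n = 3), with genes ordered by their treated mean. S100g tops the order at 878 to 1200 in treated and 437 to 631 in untreated kidneys, and Trpv6 stays below 1 in all libraries.

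High and low libraries recurred among the genes. Of the treated kidneys, library 1 held the highest Trpv5, Calb1, S100g, Slc8a1, Vdr and Cyp24a1, and library 4 the lowest of these except Vdr. Of the untreated kidneys, library 2 held the highest Calb1, S100g and Slc8a1 and the lowest Vdr and Cyp24a1. Of log2 ratios within a library, 9 were compared between the groups, chosen after the values of the 10 genes were seen. With 4 against 3 libraries the exact two-sided permutation test cannot go below p = 0.0571, so no ratio can pass. S100g over Trpv5 was 2.68, 2.76, 2.78 and 2.39 in treated and 1.86, 2.3 and 2.04 in untreated libraries, without overlap (difference 0.59, exact permutation p = 0.0571, 0.128 adjusted over the 9). Calb1 over Trpv5 differed by 0.46 (exact permutation p = 0.114) and Slc8a1 over Trpv5 by 0.09 (exact permutation p = 0.686). Cyp24a1 over Vdr differed by 0.59 (exact permutation p = 0.114) and Cyp24a1 over Cyp27b1 by 0.27 (exact permutation p = 0.686).

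**Figure D3:**
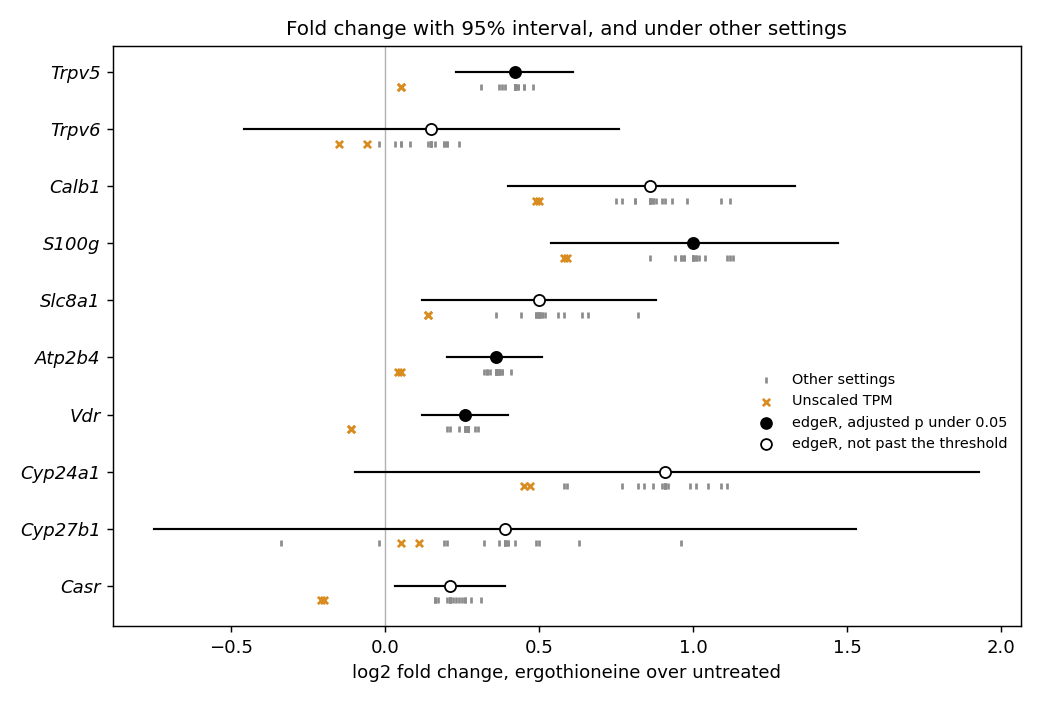
Log2 fold change of each gene, ergothioneine over untreated, by edgeR (circles with 95% intervals, filled where the adjusted p was under 0.05), with the values under the 19 other settings below each (grey bars, and orange crosses for unscaled TPM). Calb1 and S100g stay at 0.49 or more under every setting, and Trpv6, Vdr and Casr fall below 0 on unscaled TPM. Cyp27b1 falls below 0 without untreated library 1, and Cyp27b1 and Trpv6 do so without both untreated libraries 1 and 2.

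Markers of the distal convoluted and connecting tubules, the segments that hold these transport genes, were compared as lists. By edgeR, 3.58% of all genes tested were called higher and 3.57% lower. Of 6 distal convoluted tubule markers none passed by edgeR or DESeq2, with log2 fold changes of -0.12 to 0.25 over the list. By edgeR 2 had an unadjusted p under 0.05, both higher, but no share of all genes was computed at that cutoff. The 6 markers summed to 1580 to 1760 CPM in treated and 1520 to 1790 CPM in untreated kidneys. Slc12a3, the thiazide-sensitive cotransporter that defines this segment, averaged 882 ± 56.3 CPM and 844 ± 81.9 CPM (log2 fold change 0.06 ± 0.08, adjusted p = 0.701; -0.30 on unscaled log2(TPM + 1)). Set against Slc12a3 in the same library, the other 4 ratios differed between the groups by 0.82 for Calb1, 0.94 for S100g, 0.35 for Trpv5 and 0.45 for Slc8a1 on the log2 scale. These are descriptions, since the genes were already known to be higher and Slc12a3 had a smaller log2 fold change than Klhl3 (0.25), Emx1 (0.23) or Pvalb (0.20) of the same list. Of 9 connecting tubule and principal cell markers 1 passed, Klk1, and all 9 had positive log2 fold changes, with a median of 0.18. Their sum, most of it Klk1, was 1660 to 1770 CPM in treated and 1400 to 1440 CPM in untreated kidneys, without overlap.

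Intercalated cell markers, of the acid- or bicarbonate-secreting cells of the connecting tubule and collecting duct, had log2 fold changes of 0.01 (Foxi1) to 0.63. Their median was 0.38, and their sums were 249 to 284 CPM in treated and 215 to 218 CPM in untreated kidneys. Of the 6, 4 were higher by edgeR and by DESeq2, beside 3.58% and 3.65% of all genes. These were the anion exchangers Slc4a1 (0.59 ± 0.09) and Slc26a4 (0.38 ± 0.08) and the proton pump subunits Atp6v1g3 (0.63 ± 0.15) and Atp6v0d2 (0.38 ± 0.09). The most abundant of the list per length, the pump subunit Atp6v1b1, was at 0.12 (adjusted p = 0.289; -0.24 on unscaled log2(TPM + 1)). Without single libraries Atp6v0d2 lost its call in 2 of 7 cases and Atp6v1g3 in 3 of 7 (adjusted p up to 0.0864 and 0.0995). In the thick ascending limb list 2 of 6 were higher by edgeR and 3 by DESeq2, with log2 fold changes of -0.01 to 0.72. The 2 by edgeR were the sodium-potassium-chloride cotransporter gene Slc12a1 (0.34 ± 0.08, but -0.03 on unscaled log2(TPM + 1)) and Cldn10. Umod, the most abundant, was at 0.05 (-0.32 on unscaled log2(TPM + 1)). Slc12a1 lost its call in 3 of 7 cases without single libraries (adjusted p up to 0.0674). That list summed to 4390 to 5080 CPM in treated and 3970 to 4370 CPM in untreated kidneys. Of 8 proximal tubule markers 1 passed by edgeR, as lower, the amino acid carrier gene Slc7a13 (-0.56 ± 0.09). By DESeq2 1 was higher and 2 were lower, beside 562 higher and 621 lower of all 15399 genes tested. The phosphate carrier gene Slc34a1 was at -0.09, and the sums were 16400 to 18100 CPM in treated and 16800 to 20000 CPM in untreated kidneys. Whether the share of these cells differed between the groups was not tested.

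Genes that act on TRPV5 or carry its hormone signals included 4 of 16 higher by edgeR and by DESeq2, with a list median of 0.14. Over all genes tested, 3.58% were higher by edgeR and 3.65% by DESeq2. Klk1, tissue kallikrein, a protease of the connecting tubule that keeps TRPV5 at the cell surface, averaged 1040 ± 55.5 CPM in treated and 836 ± 16.1 CPM in untreated kidneys (log2 fold change 0.32 ± 0.06, adjusted p = 0.00561; -0.07 on unscaled log2(TPM + 1)), and was called without any single library. Kl, for klotho, the co-receptor of FGF23 that also stabilises TRPV5, averaged 1390 ± 82.3 CPM and 1170 ± 19.5 CPM (0.25 ± 0.07, adjusted p = 0.0332; -0.11 on unscaled log2(TPM + 1)). Bspry, whose product binds TRPV5 (0.40 ± 0.10, adjusted p = 0.0249), and the kinase gene Wnk4 (0.32 ± 0.09, adjusted p = 0.0417; -0.13 on unscaled log2(TPM + 1)) were the other 2. Kl and Wnk4 each lost the call without 6 of the 7 libraries, and Bspry without 5 (adjusted p up to 0.124, 0.148 and 0.107).

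The calcium and magnesium transport list had a median of 0.08. By edgeR (3.58% of all genes higher) and by DESeq2 (3.65%), 2 of its 13 tested genes of 16 were higher. They were the claudin genes Cldn2, of the cation-permeable junctions of the proximal tubule (461 ± 15.2 CPM in treated and 402 ± 14.6 CPM in untreated kidneys, 0.20 ± 0.06, adjusted p = 0.0439), and Cldn10, of the proximal tubule and thick ascending limb (0.31 ± 0.09, adjusted p = 0.0477). Both were negative on unscaled log2(TPM + 1), at -0.17 and -0.08, and lost the call without 7 and 5 of the 7 libraries (adjusted p up to 0.137 and 0.147). Fxyd2, a modulator of the sodium pump and the most abundant of the list per length, was at 0.08 (adjusted p = 0.692; -0.32 on unscaled log2(TPM + 1)).

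Among genes of vitamin D uptake and activation and partners of its receptor, 16 of 17 were tested, with a median of -0.14. By edgeR 2 were lower, beside 3.57% of all genes, and by DESeq2 4 were lower, beside 621 of all 15399 genes tested. The 2 by edgeR were the transcriptional coactivators Snw1 (28.2 ± 1.18 CPM in treated and 34.0 ± 2.41 CPM in untreated kidneys, -0.27 ± 0.07, adjusted p = 0.0375) and Ncoa3 (148 ± 5.59 CPM and 175 ± 19.4 CPM, -0.24 ± 0.07, adjusted p = 0.0424). Snw1 lost the call without 5 of the 7 libraries and Ncoa3 without 6 (adjusted p up to 0.144 and 0.187). Lrp2, for megalin, the receptor that takes up filtered vitamin D with its binding protein and the most abundant of the list per length, averaged 7570 ± 286 CPM and 8080 ± 893 CPM (-0.09 ± 0.09, adjusted p = 0.605).

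**Figure D4:**
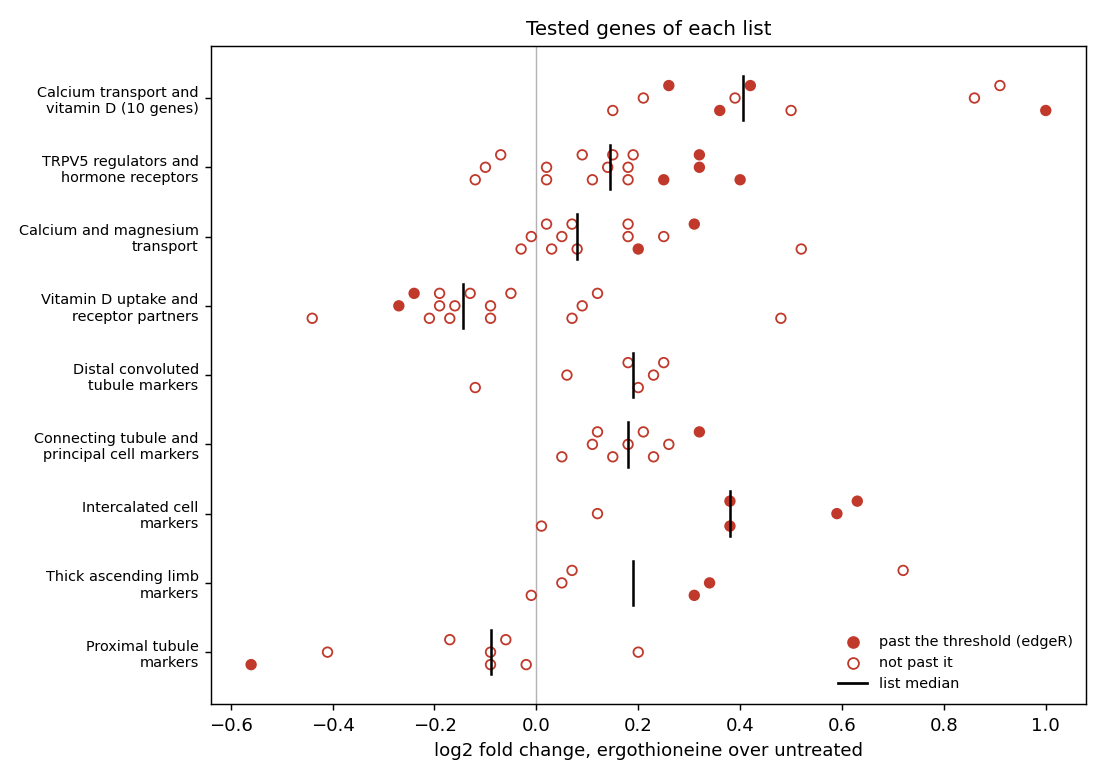
Log2 fold change, ergothioneine over untreated, of every tested gene in each list, filled where the adjusted p by edgeR was under 0.05, with a black line at the list median. The 10 calcium transport and vitamin D genes lie at 0.15 to 1.00 with a median of 0.4, and the vitamin D uptake and receptor partner genes have a median of -0.14.

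Against untreated library 3 alone, that is without untreated libraries 1 and 2, which were low in short non-coding RNA, 2 of the 10 genes were called higher, beside 1.54% of all genes tested. That comparison takes the lone untreated library to vary as the treated ones do. The 2 were Calb1 (1.12, edgeR adjusted p = 0.00147) and Slc8a1 (0.82, 0.00758). The 4 genes called in the full comparison kept positive log2 fold changes there of 0.31 for Trpv5, 0.94 for S100g, 0.33 for Atp2b4 and 0.24 for Vdr (adjusted p = 0.214, 0.179, 0.125 and 0.184). On rescaled log2(TPM + 1) 3 of the 10 were called higher, Calb1 (0.87), S100g (0.96) and Slc8a1 (0.52), beside 0.88% of all genes. On unscaled log2(TPM + 1) 0 of the 10 were called by limma, beside 0.351% of all genes called higher. At an unadjusted p under 0.05 there were 3 (Calb1, S100g and Cyp24a1), but no share of all genes was computed at that cutoff. On unscaled log2(TPM + 1) Trpv5 stood at 0.05 (adjusted p = 0.849) and Atp2b4 at 0.04 (adjusted p = 0.879). DESeq2 called 6 of the 10 higher, beside 3.65% of all genes. With the library index as a block (high against low indices), 5 of the 10 were called higher, beside 2.94% of all genes. They were Trpv5, Calb1, Slc8a1, Atp2b4 and Vdr.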

How the data were processed

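RNA of whole frozen kidney was depleted of ribosomal RNA and made into stranded libraries by ligation, per the labels' protocols. The authors deposited expected counts and TPM per Ensembl gene for 7 libraries. Per the submitters' processing notes, the tools included STAR 2.7.10a, RSEM 1.3.1, Salmon 1.10.1 and featureCounts of Subread 2.0.1, on GRCm38, with no role given. The annotation release is not given in the sources used here. Of the deposited expected counts 3.61% were not whole. They were rounded and tested, treated over untreated, with edgeR 4.0.16 in R 4.3.3 (filterByExpr, TMM, robust quasi-likelihood F test, Benjamini-Hochberg adjustment over all 15399 genes, threshold 0.05). SE is the log2 fold change over the square root of F. Intervals at 95% are unadjusted and use the test's degrees of freedom.

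CPM uses TMM library sizes. For rescaled TPM, genes with a median transcript under 400 nt that are not protein-coding were removed from the deposited TPM. The TPM settings used limma 3.58.1 (trend, robust) with pseudocounts of 1 and 0.1. Symbols and positions came from GENCODE M21, which held 45143 of the 45706 identifiers, and promoters from RefSeq.

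The 10 genes and all lists were chosen with earlier results of these data known. The rule named the 10 genes, each list's called genes and its most abundant gene per length. Of the list genes, Atp2b1, Klhl3, Emx1, Pvalb and Foxi1 are given outside that rule. Adipocyte, clock, leukocyte, podocyte, smooth muscle, endothelial, erythroid and parathyroid lists are given as counts, with summed CPM for the adipocyte, smooth muscle and endothelial lists. Alternatives were DESeq2 1.42.0, limma-voom, other scalings and filters, the TPM settings, replicate and library index blocks, and each library left out. The library index block set treated library 1 and untreated libraries 1 and 2 (index 44, 49 and 50) against the others (index 14 to 23). The labels do not call these sets batches. Leaving out untreated libraries 1 and 2 together was added after seeing the data. In a set simulated for this comparison (15220 genes, varying independently), edgeR recovered 30% of the changes of size 1.25, 52% at 1.5, 78% at 2 and 98% at 4. Each simulated gene had the typical spread for its level. The shares do not apply to genes that vary more, such as Calb1 and S100g (SE 0.19) or Cyp24a1 (SE 0.40), against a median SE of 0.11. No library was a copy of another: chi-square per degree of freedom between libraries of the same group was 7.98 to 27.6.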

Additional observations from a re-analysis of the deposited data

Results flagged for a closer look

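Among 30 named genes, 3 had a treated library far from the other 3 treated libraries, by the gap to the nearest library over the range of the group on log2 CPM. Chance flags about 1 in 20 groups. S100g stood at 107 CPM in treated library 4 and at 147 to 151 CPM in the others (gap over range 0.93). Vdr stood at 403 CPM in treated library 1 and at 349 to 353 CPM in the others (0.93). Ncoa3 stood at 156 CPM in treated library 2 and at 144 to 146 CPM in the others (0.852).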

How the results depend on the processing

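Over all genes tested, edgeR called 3.58% higher, and 2.29% to 3.37% when single libraries were left out. Of the 10 genes, 4 were called by edgeR. The count was 0 on log2(TPM + 1) and on log2(TPM + 0.1), 2 without both untreated libraries 1 and 2, and 2 to 4 when single libraries were left out (2 without untreated library 3 or treated library 1). The replicate numbers did not pair the samples (correlations of same-numbered deviations 0.05, -0.08 and 0). Treated library 4 has no untreated library of its number, so it adds nothing to the comparison with the replicate number as a block. With the replicate number as a block 7 of the 10 were called, beside 2.57% of all genes called higher. Of 45 tested pathway genes, 8 were called without that block and 2 with it, beside 7.16% and 5.25% of all genes called. Those 8 became 4 on log2(TPM + 1) and on log2(TPM + 0.1) (9.99% and 9.59% of all genes) and 0 on rescaled TPM (1.83%). They became 3 with a block on library index (5.98%), 10 by DESeq2 (7.68%), 6 by limma-voom (6.94%) and 9 with no low-count filter (5.91%, 49 tested). Without single libraries they became 1 to 7 (1 without untreated library 1 or treated library 2). Over all genes, 1102 calls (50.1% higher) became 280 on rescaled TPM, 556 without both untreated libraries 1 and 2, and 692 to 1103 without single libraries (692 without treated library 1, 710 without treated library 2). On log2(TPM + 1) 3.51% of the calls were higher.

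Directions turned as follows; the cause was not tested beyond the shift of the median gene, -0.31 on log2(TPM + 1) and -0.37 on log2(TPM + 0.1). On these scales Trpv6 was at -0.06 and -0.15, Casr at -0.20 and -0.21, Wnk4 at -0.13 and -0.14, and Atp6v1b1 at -0.24 and -0.25. On both, Vdr was at -0.11, Cldn10 at -0.08, Cldn2 at -0.17, Kl at -0.11, Klk1 at -0.07, Slc12a1 at -0.03, Fxyd2 at -0.32, Slc12a3 at -0.30 and Umod at -0.32. Without both untreated libraries 1 and 2, Trpv6 was at -0.02, Cyp27b1 at -0.34 and Slc12a3 at -0.08. With single libraries left out, Cyp27b1 ran over -0.02 (without untreated library 1) to 0.96 and Fxyd2 over 0 (without untreated library 3) to 0.14. Trpv5, Calb1, S100g, Slc8a1, Atp2b4 and Cyp24a1 kept a positive sign under all 19 alternatives, but on log2(TPM + 1) Trpv5 was at 0.05 and Atp2b4 at 0.04, uncalled. Trpv6 had few counts in every library, and Cyp27b1 spread over 1.47 to 6.48 CPM among the untreated libraries alone.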
